A study of Arabidopsis thaliana with 6 samples.

Results

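The genes described here are the 26 named Arabidopsis thaliana genes whose transcripts were lower in every array of the ara6-1 mutant than in every wild-type array, out of 16542 genes measured under a name of their own. They were chosen on log2 intensity. The highest ara6-1 value had to lie below the lowest wild-type (WT) value, the WT mean had to exceed the ara6-1 mean at least 1.5-fold, and the WT mean had to be at least 4. In all, 34 genes met these values, which is 0.206% of the named genes. The 8 left out by name are ARA6 itself, AT3G15450, AT4G21870, 4 CC-type glutaredoxin genes and the calmodulin-like gene CML41. Since the choice was made on the difference between the same 6 arrays, the values of the 26 genes are given as a description, without a test.

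Each array measured total RNA from whole plants of the Columbia accession at an age of 14 days. Sterilized seeds were kept at 4 °C for 1 day, and the seedlings were raised on MS medium under constant light at 23 °C. There were 3 biological replicates of WT and 3 of ara6-1, a knock-out of the RAB5 GTPase gene ARA6 according to the labels, and no second mutant allele was measured. The question behind the comparison was how the loss of ARA6 bears on starch and sugar homeostasis. The labels do not say how the replicate plants were raised apart, so the spread between them may be partly technical.

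RAB5 GTPases are small switch proteins that mark early endosomes and recruit the machinery that fuses them. ARA6 is a plant-specific form of this family that also acts in traffic from endosomes to the plasma membrane. Transcript levels in a whole plant sum over all its tissues, so fewer cells of a type and less RNA per cell cannot be told apart in these values. Most of the 26 genes carry no symbol in the annotation used here. Of the 26, 22 are listed under their locus code alone and 4 under a symbol (DI21, AT7SL-1, RALFL24 and psbN). Roles stated below for locus codes are general background on these Arabidopsis genes, and no role is stated for the others.

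Array medians were nearly equal, with log2 intensities of 4.85 to 4.87 over 28501 probe sets. The 5th percentile lay between 1.54 and 1.68. Of the 6 arrays, WT replicate 3 and ara6-1 replicate 1 deviated most from their group means. The SDs of these deviations were 0.169 and 0.165, against 0.12 to 0.126 on the remaining arrays, so some values are also given without both arrays. ARA6 had a log2 intensity of 8.24 ± 0.22 in WT and 7.01 ± 0.13 in ara6-1 (SD over 3 arrays), and which part of its transcript was read is not known here. The labelled whole tissue was checked with 1 measured shoot marker, LHCB4.1 of the light-harvesting complex, at a WT mean of 9.74, and 3 measured root markers, PYK10, BGLU21 and EXPA7, at 12.22, 8.12 and 5.55. None of the 4 flower organ markers was measured under a name. The summed intensity of the root markers was 5020 to 5171 in WT and 5448 to 5564 in ara6-1, and that of the shoot marker 846.1 to 870.4 and 896.7 to 1057. LHCB4.1 and PYK10, the brightest root marker, were slightly higher in all ara6-1 arrays, each by at least 0.04. Such an order was found in 6.95% of all named genes. BGLU21 and EXPA7 had higher means in ara6-1 with overlapping groups. The part of these markers in the members' differences was not tested. By limma, with p-values adjusted by Benjamini-Hochberg over 28501 probe sets, 0 of these 4 markers passed (adjusted p from 0.634 to 0.834), against 0.0105% of all probe sets. An unadjusted p under 0.05 was found in 0 of the 4, against 9.01% of all probe sets.

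The 26 genes fell into 3 large differences and 23 modest ones. AT3G61030, AT3G60950 and AT5G44540 were lower by 2.20 to 2.88 on the log2 scale, while the other 23 were lower by 0.59 to 0.90. The median difference was 0.67 (1.59-fold), against a median of 0.01 over all named genes. WT means ran from 4.00 to 11.31 with a median of 6.36, so the genes covered the range from dim to very bright signals. In 9 of them the WT mean was under 5, and in 5 it was 9 or more. The gap between the lowest WT value and the highest ara6-1 value ran from 0.02 to 2.10, with a median of 0.29, and 7 genes had a gap of 0.1 or less.

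**Figure D1:**
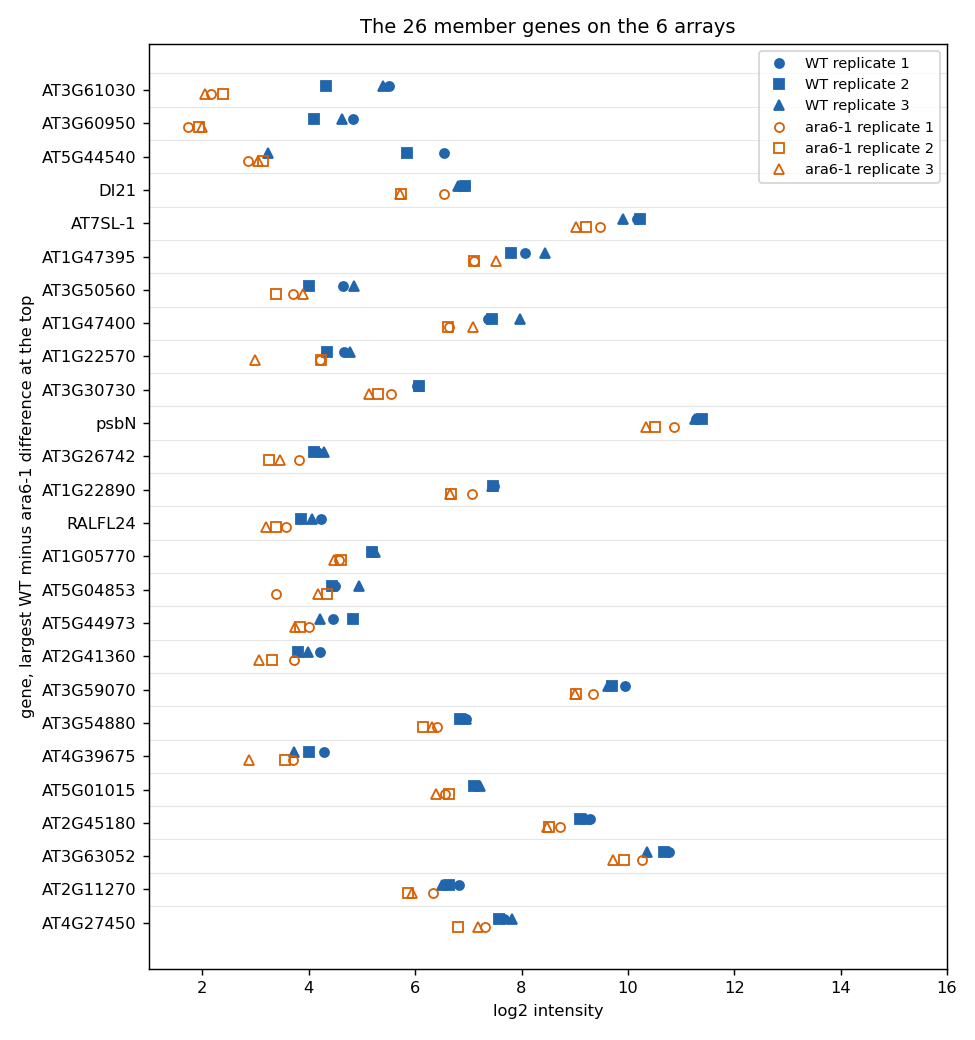
Log2 intensity (x axis) of each of the 26 genes (y axis, ordered by difference) on the 3 WT arrays (filled) and the 3 ara6-1 arrays (open), 1 point per array. AT3G61030 and AT3G60950 have gaps of 1.95 and 2.10 between the groups, and in AT5G44540 WT replicate 3 lies next to the ara6-1 arrays.

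The bulk of named genes differed far less. The groups did not overlap, with ara6-1 lower, in 1309 named genes (7.91%), and with ara6-1 higher in 1149 (6.95%). Either order was found in 14.9%, and 51.9% had a lower mean in ara6-1. Of the 28501 probe sets, limma called 3 (0.0105%) at a Benjamini-Hochberg threshold of 0.05, 1 lower (0.00351%) and 2 higher in the mutant (0.00702%), and 9.01% had an unadjusted p under 0.05. The 26 genes are 0.157% of the named genes, and these percentages are background only, since the rule used the same contrast. Among rows of the table without a gene name, 77 of 11053 (0.697%) met the same values, as did 1 of 744 rows that named several genes (0.134%). What those rows measure was not analysed here.

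**Figure D2:**
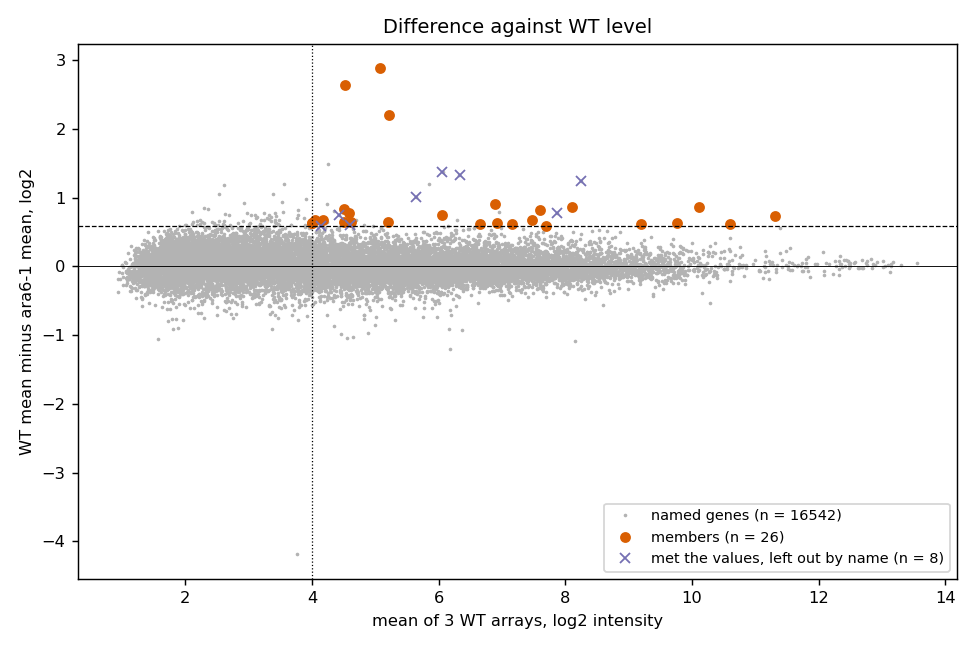
WT mean minus ara6-1 mean on the log2 scale (y axis) against the mean log2 intensity of the 3 WT arrays (x axis) for the 16542 named genes (grey), the 26 members (orange) and the 8 genes left out by name (crosses). The dashed and dotted lines mark the minimum difference of 1.5-fold and the minimum WT mean of 4, and 3 members stand above 2.

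The pair with the largest differences, AT3G61030 and AT3G60950, encodes proteins with C2 domains, modules that bind membrane lipids in response to calcium. AT3G61030 stood at log2 intensities of 5.51, 4.33 and 5.39 in WT replicates 1 to 3 and at 2.17, 2.38 and 2.04 in ara6-1 replicates 1 to 3. The WT mean of 5.08 ± 0.65 and the mutant mean of 2.19 ± 0.17 (SD over 3 arrays each) differed 7.37-fold. All 3 mutant arrays lay far below the WT arrays, and WT replicate 2 was the lowest of the WT arrays.

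AT3G60950 stood at 4.83, 4.10 and 4.63 in the WT arrays and at 1.72, 1.93 and 2.00 in the ara6-1 arrays, which is 6.23-fold lower. WT replicate 2 was again the lowest WT array. Mutant means of both genes sat near the floor of the arrays, at the 15.1th and 9.74th percentile of the measured probe sets for AT3G61030 and AT3G60950. The table gives no detection calls, so the sizes of these differences are uncertain. Whether their probe sets tell the pair apart was not tested. Of the other C2-domain genes listed, 1 was measured under a name. ATSYTF (AT3G18370), a synaptotagmin that tethers membranes, had means of 7.22 in WT and 7.33 in ara6-1, a difference of -0.11 (limma, adjusted p = 0.749).

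AT3G60950 and AT3G61030 lie close together on chromosome 3, with 18 annotated genes between them, 6 of which were measured under a name. From 25 genes before the pair to 25 after it, 28 other named genes were measured. Their differences ran from -0.41 to 0.55 with a median of 0.08, and 0 of them passed in limma with Benjamini-Hochberg adjustment, while 5 had an unadjusted p under 0.05, against 9.01% of all probe sets. In 4 of the 28 the groups did not overlap with ara6-1 lower, against 7.91% of named genes. The gene with the largest difference among them was AT3G61100 with 0.55 (means of 4.64 and 4.09; limma, adjusted p = 0.447). AT3G60940 and AT3G61028, the genes directly before AT3G60950 and AT3G61030, differed by 0.32 and 0.54 with overlapping groups, both at WT means of 3.09 or less. Many of the 28 genes were dim in WT, where a difference as large as that of the pair could not have been measured.

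AT5G44540, which belongs to a family of tapetum-specific proteins of the anther, was the gene with the widest spread. Its log2 intensity was 6.55, 5.85 and 3.23 in the WT arrays and 2.85, 3.14 and 3.04 in the ara6-1 arrays. WT replicates 1 and 2 were high, whereas WT replicate 3 lay only 0.10 above the highest mutant array. The mean difference of 2.20 thus came with a WT SD of 1.75. It was 3.19 without WT replicate 3, 1.53 without WT replicate 1, and 3.11 without WT replicate 3 and ara6-1 replicate 1.

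Next in size came DI21 (AT4G15910, drought-induced 21), a small protein of the late embryogenesis abundant type whose transcript accumulates under drought. DI21 stood at 6.94, 6.94 and 6.80 in WT and at 6.54, 5.73 and 5.72 in ara6-1. The WT arrays were close together (SD 0.08), and ara6-1 replicate 1 lay nearer to WT than to the other mutant arrays. The difference was 0.90, and 1.17 without ara6-1 replicate 1. The other measured gene of the same protein family, AT3G53770, was dim in both groups, with means of 1.59 and 1.67.

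AT7SL-1 (AT4G02970) carries the name of the 7SL RNA, the RNA core of the signal recognition particle, which brings ribosomes that make secreted proteins to the endoplasmic reticulum. The annotation lists the locus as protein coding, so these values do not tell which transcript of the locus was measured. Its log2 intensity was 10.18, 10.23 and 9.91 in WT and 9.48, 9.22 and 9.03 in ara6-1, a 1.82-fold difference. The difference was 0.86 on the log2 scale, and 1.08 without WT replicate 3 and ara6-1 replicate 1. Its WT mean ranked at percentile 98.2 among the probe sets. No other 7SL gene was measured under such a name.

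Adjacent on chromosome 1, with 0 annotated genes between them, AT1G47395 and AT1G47400 encode very small peptides of the IRON MAN family, which promote iron uptake and are strongly expressed when iron is short. AT1G47395 stood at 8.06, 7.80 and 8.44 in WT and at 7.10, 7.11 and 7.52 in ara6-1. AT1G47400 stood at 7.37, 7.45 and 7.98 in WT and at 6.64, 6.62 and 7.08 in ara6-1. Replicate 3 was the highest array of its genotype for both genes, and the differences were alike, at 0.86 and 0.82. Without WT replicate 3 they were 0.69 and 0.63, and without WT replicate 3 and ara6-1 replicate 1 together they were 0.61 and 0.56.

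Other genes that respond to iron deficiency, put together after these members had been seen, did not share one direction. Of 29 listed genes 10 were measured, the 2 peptide genes and 8 others. Of these 8, 5 had lower and 3 had higher means in ara6-1, with a median difference of 0.09. In 3 of the 8 (AT1G74770, AT1G18910 and ILR3) the groups did not overlap with ara6-1 higher, against 6.95% of named genes. In 1, AT3G12900 (means of 3.39 and 3.24), they did not overlap with ara6-1 lower, against 7.91%. AT1G18910 had means of 5.93 in WT and 6.16 in ara6-1. BHLH101 (AT5G04150), a transcription factor gene of the iron deficiency response, had means of 4.12 and 3.51, a difference of 0.62 with groups that overlapped by 0.01. AT1G74770, which encodes a ubiquitin ligase that restrains iron uptake, was higher in ara6-1 (5.99 in WT and 6.47 in the mutant), and its groups did not overlap. The regulator genes PYE (7.69 and 7.59) and ILR3 (10.38 and 10.51) differed little, and in ILR3 the mutant arrays were all higher, by at least 0.03. None of the 22 other named genes measured within 25 genes of the peptide pair passed in limma with Benjamini-Hochberg adjustment. An unadjusted p under 0.05 was found in 3 of them, against 9.01% of all probe sets. A lower mean in ara6-1 was found in 16 of the 22, against 51.9% of all named genes. In 4 of the 22 the groups did not overlap with ara6-1 lower, against 7.91%. Among the 22 genes AT1G47470 differed by 1.06 at a low signal (means of 2.53 and 1.47; limma, adjusted p = 0.517).

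**Figure D3:**
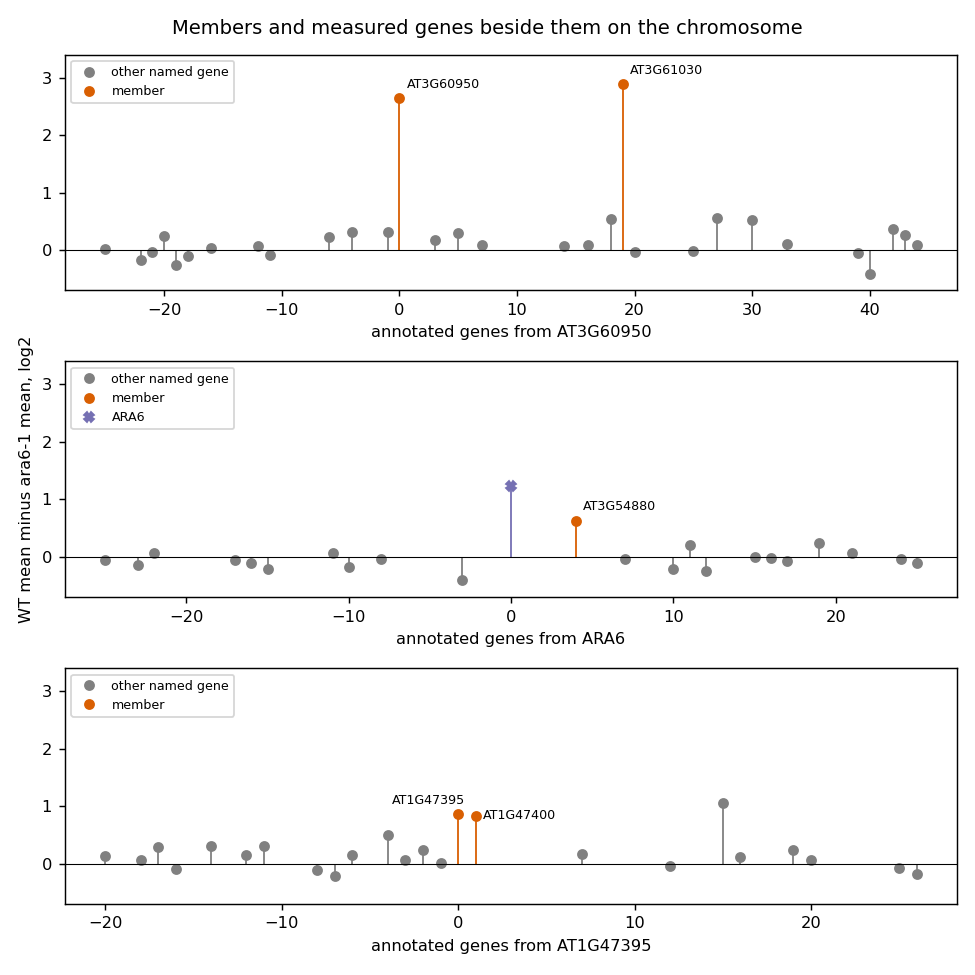
WT mean minus ara6-1 mean on the log2 scale (y axis) for named genes in annotated gene order (x axis, counted in genes) around AT3G60950 and AT3G61030, around ARA6, and around AT1G47395 and AT1G47400. Members are orange, ARA6 is a purple cross, and the other named genes (grey) lie between -0.41 and 1.06.

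A member also lay close to ARA6 on chromosome 3. AT3G54880, separated from ARA6 by 3 annotated genes of which 0 were measured under a name, stood at 6.96, 6.85 and 6.95 in WT and at 6.41, 6.15 and 6.32 in ara6-1. The WT arrays differed little (SD 0.06), and all mutant arrays were below them by at least 0.44. Of the 21 other named genes measured within 25 genes of ARA6, 5 had a lower mean in ara6-1, against 51.9% of all named genes. In 1 of the 21 the groups did not overlap with ara6-1 lower, against 7.91%. The differences of the 21 genes ran from -0.41 to 0.24 with a median of -0.05. In limma with Benjamini-Hochberg adjustment 0 of them passed, and 2 had an unadjusted p under 0.05, against 9.01% of all probe sets.

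AT3G30730 was a neighbour of QQS (AT3G30720), the orphan gene of leaf starch content whose transcript was higher in the mutant. Between them lay 3 annotated genes, 0 of them measured under a name. AT3G30730 stood at 6.04, 6.08 and 6.07 in WT, an SD of 0.02, and at 5.55, 5.30 and 5.13 in ara6-1. QQS had means of 3.76 and 7.95, so these close neighbours differed in opposite directions between the genotypes. On its other side the nearest measured gene, AT3G30770, was 22 annotated genes away and dim in both groups (1.80 and 2.18).

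Across chromosomes, 9 of the 26 genes (34.6%) were on chromosome 3, which held 20.4% of the named genes. Chromosome 1 held 5 (19.2% against 25.8% of named genes), chromosomes 4 and 5 held 4 each (15.4% against 14.8% and 23%), and chromosome 2 held 3 (11.5% against 15.3%). The remaining gene was plastid-encoded. The nearest measured genes beside the nuclear members numbered 47 apart from members and genes left out by name. QQS was the 1 that passed (limma, adjusted p = 0.000208), and the other 46 had a median difference of 0.06 and a range of -0.41 to 0.54. In 4 of the 47 (8.51%) the groups did not overlap with ara6-1 lower, close to the 7.91% of all named genes. ATG8E (AT2G45170), an autophagy gene beside AT2G45180, was among these 4, with means of 5.97 and 5.48 (limma, adjusted p = 0.5), as was AT2G11271 beside AT2G11270, with 6.28 and 5.75 (limma, adjusted p = 0.485).

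The plastid-encoded member was psbN, whose product helps to assemble photosystem II. Its log2 intensity was 11.28, 11.39 and 11.26 in WT and 10.87, 10.51 and 10.34 in ara6-1. The WT arrays were nearly equal and all 3 mutant arrays were lower, by a mean of 0.73. The gene lies within the psbB gene cluster but on the opposite strand, and the cluster's own genes differed little. Differences were -0.08 for psbB, -0.08 for psbT, 0.01 for psbH, 0.08 for petB and 0.05 for petD.

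Of the 62 other plastid-encoded genes measured, 47 had a lower mean in ara6-1 and 15 a higher one, with a median difference of 0.03. In 9 of the 62 the groups did not overlap with ara6-1 lower, and in 0 with ara6-1 higher, against 7.91% and 6.95% of all named genes. In 5 of these 9 (atpH, psbA, petB, psaI and petN) the gap was 0.01 or less. The ribosomal protein gene rpl33 came closest to psbN with 0.55 (means of 11.39 and 10.84), followed by psbM with 0.28 and rpl32 with 0.26. Those with non-overlapping groups included 6 of the 22 genes shorter than 300 bp and 3 of the 40 longer ones, while the median difference was 0.03 in both classes.

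Genes for small secreted proteins and for a lectin made up a further group. AT2G45180, a small secreted protein of the lipid-transfer type linked to disease resistance and salt tolerance, was bright, at 9.28, 9.09 and 9.21 in WT and 8.73, 8.52 and 8.47 in ara6-1. The groups were 0.36 apart. Of 14 listed genes of this type 9 were measured, and of the other 8, 3 had a lower and 5 a higher mean in ara6-1, with a median difference of -0.04 and a range of -0.26 to 0.68. AT4G12500 reached 0.68 (means of 6.30 ± 0.35 and 5.62 ± 0.45, SD over 3 arrays), but its groups overlapped.

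RALFL24 (AT3G23805), a gene for a peptide of the RALF family, which signals through receptor kinases at the cell wall, stood at 4.23, 3.86 and 4.06 in WT and at 3.57, 3.39 and 3.19 in ara6-1. Among the other 17 RALF-like genes measured, 12 had a lower and 5 a higher mean in ara6-1, with a median difference of 0.12. In 3 of the 17 the groups did not overlap with ara6-1 lower (RALFL29 with 0.64, RALFL32 with 0.38 and RALFL18 with 0.28), and of these RALFL29 and RALFL18 had WT means of 2.46 and 3.03, near the low end of the arrays. The share of non-overlapping genes with ara6-1 lower was 7.91% over all named genes, and 16.5% over those under 1000 bp with a WT mean of at least 4. Most of the 17 had WT means under 4, so the second share comes from a set with brighter signals. AT1G05770, a lectin gene of the jacalin type whose products bind mannose-containing sugars, showed the clearest separation for its size. It stood at 5.19, 5.18 and 5.24 in WT and at 4.57, 4.61 and 4.48 in ara6-1, and its gap of 0.57 was 87.5% of its mean difference, the largest such share among the 26 genes.

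Membrane proteins were represented by AT3G59070 and AT1G22570. AT3G59070, of the cytochrome b561 family that moves electrons across membranes, stood at 9.95, 9.70 and 9.63 in WT and at 9.34, 9.02 and 9.01 in ara6-1, with groups 0.29 apart. A second probe set of this gene was dim in both groups, with means of 2.29 and 2.22, and the 25 other members had a single probe set. AT1G22570, of the nitrate and peptide transporter family, stood at 4.67, 4.34 and 4.77 in WT and at 4.22, 4.23 and 2.98 in ara6-1. Its difference of 0.78 rested mostly on ara6-1 replicate 3 and was 0.36 without that array. Beside it on chromosome 1, the related genes AT1G22540 and AT1G22550 differed by -0.11 and 0.27, with overlapping groups.

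Among genes of metabolism and energy status, AT4G27450 belongs to a small family of proteins first known as aluminium-induced, which includes AT3G15450, whose transcript accumulates in the dark and when sugar is short. AT4G27450 stood at 7.67, 7.58 and 7.82 in WT and at 7.31, 6.80 and 7.18 in ara6-1. With a difference of 0.59 it was the member nearest to the minimum. All 5 genes of the family were measured. AT3G15450, left out by name, differed by 0.77, while AT5G43830, AILP1 and AT3G22850 differed by 0.02, 0.07 and 0.01, with overlapping groups.

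In the list of sugar-starvation and dark-induced genes, 2 of 20 were measured, neither of them a member. In limma with Benjamini-Hochberg adjustment 0 passed, and 1 had an unadjusted p under 0.05, against 9.01% of all probe sets. AKINBETA1, a subunit gene of the energy-sensing kinase SnRK1, had means of 8.72 and 8.42 (limma, adjusted p = 0.541). Its groups did not overlap, with ara6-1 lower by at least 0.08, an order found in 7.91% of all named genes. The transcription factor gene BZIP53 had 8.34 in both groups. In the RAB5 and endosome list of 10 genes, 3 besides ARA6 were measured and 0 passed in limma, also at an unadjusted p under 0.05. AT2G28390 (7.93 in WT and 8.09 in ara6-1) and AT1G16020 (4.82 and 5.03) were higher in all ara6-1 arrays, by at least 0.04 and 0.02. Such an order was found in 6.95% of all named genes. The groups of AT1G80910 (6.91 and 6.87) overlapped. The rest of that list was not measured under a name. AT3G50560, of the family of NAD(P)-binding oxidoreductases, stood at 4.64, 4.00 and 4.85 in WT and at 3.71, 3.38 and 3.90 in ara6-1, with a gap of 0.10.

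The remaining 9 genes are given without a role. AT1G22890 and AT5G01015 had even WT values. AT1G22890 stood at 7.49, 7.47 and 7.45 in WT and at 7.06, 6.68 and 6.66 in ara6-1, and AT5G01015 at 7.15, 7.11 and 7.21 in WT and at 6.57, 6.64 and 6.39 in ara6-1. In both, the WT arrays lay within 0.10 of each other.

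AT3G63052 was bright, at 10.77, 10.67 and 10.35 in WT and at 10.27, 9.93 and 9.72 in ara6-1, with a gap of only 0.08. AT2G11270 stood at 6.82, 6.64 and 6.50 in WT and at 6.34, 5.87 and 5.94 in ara6-1. Its neighbour AT2G11271, which met the other criteria, missed the minimum difference with 0.53. For both genes WT replicate 3 was the lowest WT array and ara6-1 replicate 1 the highest mutant array, the arrays that deviated most. Without both arrays the differences were 0.83 for AT2G11270 and 0.89 for AT3G63052, against 0.61 and 0.62 with all arrays.

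AT3G26742, AT5G04853, AT5G44973, AT2G41360 and AT4G39675 were dim, with WT means of 4.00 to 4.62 and ara6-1 means of 3.37 to 3.97. AT3G26742 stood at 4.15, 4.10 and 4.29 in WT and at 3.81, 3.25 and 3.46 in ara6-1. AT5G44973 stood at 4.46, 4.83 and 4.22 in WT and at 4.00, 3.84 and 3.75 in ara6-1. In both genes the groups were at least 0.22 apart. AT2G41360 stood at 4.22, 3.80 and 3.98 in WT and at 3.72, 3.31 and 3.07 in ara6-1, so that WT replicate 2 lay just 0.07 above ara6-1 replicate 1. AT4G39675 had the smallest gap of the 26 genes, 0.02, with 4.28, 4.01 and 3.72 in WT and 3.70, 3.56 and 2.87 in ara6-1. Its difference of 0.63 was 0.37 without ara6-1 replicate 3, and 0.93 without WT replicate 3 and ara6-1 replicate 1. AT5G04853 stood at 4.50, 4.43 and 4.94 in WT and at 3.39, 4.35 and 4.18 in ara6-1. Only ara6-1 replicate 1 was well below WT, and the difference of 0.65 was 0.36 without it and 0.20 without WT replicate 3 as well.

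At the minimum difference, AT4G27450, AT2G11270 and AT3G63052 lay just inside with 0.595, 0.608 and 0.623. Just outside were AT4G29630 (means of 4.96 and 4.37), AT2G07440 (4.42 and 3.85) and AT5G23360 (4.09 and 3.52) with 0.584, 0.578 and 0.566. AT3G24465, AT1G13609 and AT3G07450 met the difference but had WT means of 3.97, 3.91 and 3.88. The minimum WT mean removed 49 genes in all.

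**Figure D4:**
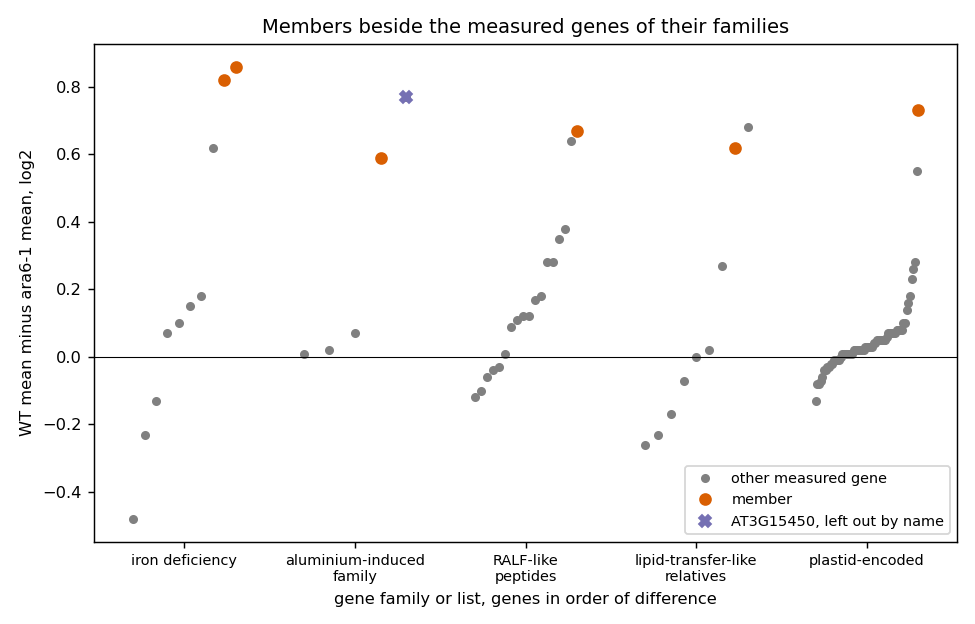
WT mean minus ara6-1 mean on the log2 scale (y axis) for the measured genes of 5 families or lists (x axis, genes in order of difference within each). Members are orange, AT3G15450 is a purple cross, and grey points are the other measured genes, such as rpl33 at 0.55 among the plastid-encoded genes.

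The members did not differ equally in all arrays. In 16 of the 26 genes ara6-1 replicate 1 was the highest mutant array, and in 16 ara6-1 replicate 3 was the lowest. The median deviation from the group mean was 0.20 in ara6-1 replicate 1, -0.05 in replicate 2 and -0.11 in replicate 3, against 0.01 or less in size over all named genes. In WT the medians were 0.06, -0.06 and 0.01 in replicates 1 to 3, and replicate 2 was the lowest array in 14 genes. The median difference of the members was 0.79 without ara6-1 replicate 1 and 0.82 without that array and WT replicate 3. The median SD within ara6-1 was 0.24, larger than the 0.15 of all named genes, and within WT it was 0.18 against 0.16. Many members are short genes, 16 of the 26 being under 1000 bp. Among all named genes of that length with a WT mean of at least 4, the median pooled SD was 0.19, against 0.13 in longer ones.

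A property that the choice did not use was gene length. In the RefSeq annotation the 26 genes had a median length of 887 bp, against 1907 bp for 16499 named genes with a length. Of the 26, 16 (61.5%) were shorter than 1000 bp, against 19.2% of named genes and 7.84% of those with a WT mean of at least 4. The shortest were psbN with 132 bp and AT5G04853 with 177 bp, while AT3G61030 and AT3G60950, with 5199 and 5832 bp, were the longest. Of the 711 genes under 1000 bp with a WT mean of at least 4, 21 (2.95%) met the value criteria, against 13 of 8358 longer genes (0.156%). The shorter genes were also dimmer, with a median WT mean of 5.21 against 6.16, and length was not separated from signal level here. The same criteria turned around gave 30 named genes higher in ara6-1, and 1 of them (3.33%) was shorter than 1000 bp.

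The whole table showed a smaller trend of the same direction. Among 9063 named genes with a mean log2 intensity of at least 4 over all arrays and a known length, the median difference of WT minus ara6-1 was 0.08 in genes under 500 bp and also in those from 500 to under 1000 bp. It was 0.04 from 1000 to under 2000 bp, -0.04 from 2000 to under 4000 bp and -0.09 at 4000 bp or more. The share of genes with a lower mean in ara6-1 was 74.4% in the shortest class and 23.2% in the longest. Without any 1 of the 6 arrays the median stayed between 0.07 and 0.10 in the shortest class and between -0.06 and -0.13 in the longest. Short genes also varied more between replicates, with a median SD within groups of 0.17 in the shortest class against 0.12 in the longest. Signal level was not held equal between the length classes. With the median of its length class taken off each gene, 19 genes met the criteria, 17 of them among the 26, and the other 9 members no longer met them. The members' median difference was then 0.62. This step leaves the wider spread of short genes in place, and the part of gene length in the members' differences was not tested.

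**Figure D5:**
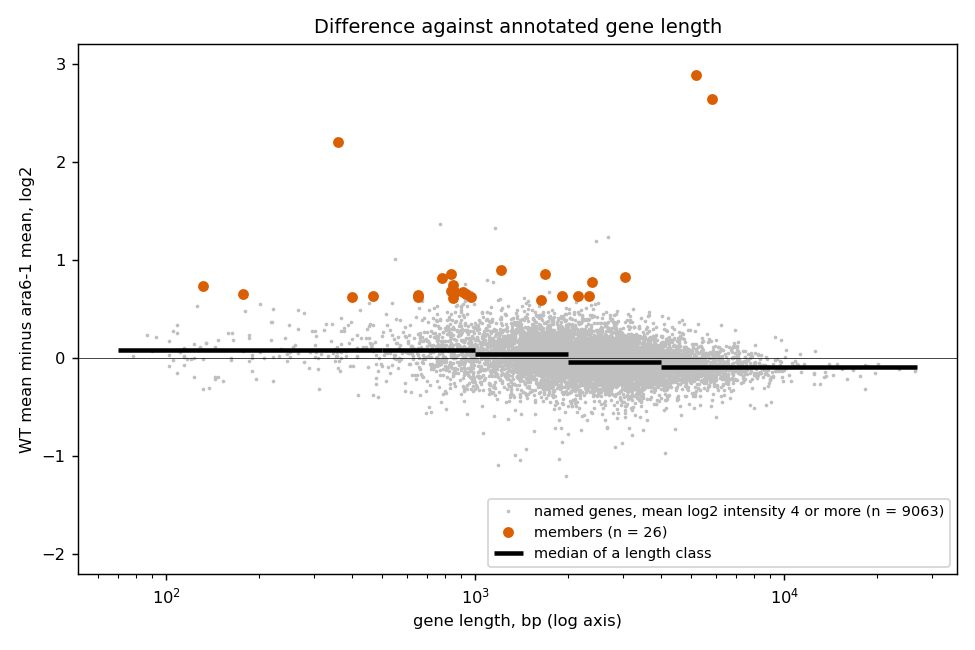
WT mean minus ara6-1 mean on the log2 scale (y axis) against annotated gene length in bp (x axis, log scale) for 9063 named genes (grey) and the 26 members (orange). Black bars are the medians of 5 length classes, from 0.08 in the shortest to -0.09 in the longest, and 16 members lie below 1000 bp.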

How the data were processed

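Each sample was hybridized to its own Affymetrix whole-transcript array (labelling kits per the labels' protocols). The authors deposited linear intensity values from Affymetrix Expression Console 1.3, a tool named by the submitters' processing notes. How probes were summarized, the build and the annotation are not given in the sources used here. Since array medians nearly matched, no further normalization was applied before values were turned into log2. Of 38408 rows, the 28501 written to 1 decimal or fewer were used, of which 16704 named 1 gene, 744 several and 11053 none. Gene names were read from the platform annotation and updated through RefSeq (TAIR10.1), where 16556 of the 16704 were found, and each gene was read from its brightest row. Gene order and length came from the same annotation, and build-dependent coordinates are not printed. Precision was limited by the 3 arrays per group.

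Genes that are not members were tested with limma 3.58.1 in R 4.3.3 (lmFit, eBayes; two-sided; Benjamini-Hochberg over 28501 probe sets; threshold 0.05). The fit was tested on simulated data with known changes. Members and lists were chosen with earlier results of these data known, and the iron, ferritin, plastid, RALF, 7SL, lipid-transfer, drought-protein, transporter and aluminium-induced lists after the members had been seen. Of the 4 ferritin genes 0 were measured under a name. By the rule set for named genes, values were given in full for the 12 largest differences, members close to each other or to ARA6, and those at the minimum difference. The others were given by role. Role groups came from background knowledge, since no product names were at hand, and protein and promoter sequences were not used here. Alternatives were renewed quantile normalization, median centring, array omission, other rule limits, a prior variance that follows intensity, no moderation, all rows, a filter on dim probe sets and the replicate number as a block.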

Additional observations from a re-analysis of the deposited data

How the results depend on the processing

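The number of genes that met the rule depended on its limits more than on the scaling. It was 26 as reported, 25 after renewed quantile normalization (24 of them members) and 27 with arrays centred on their medians. It was 46 with a minimum difference of 0.5, 3 with 1, 74 without a minimum WT mean, 17 with a minimum WT mean of 5, 40 when groups could overlap, and 10 among genes of at least 1000 bp, an alternative chosen after seeing the data, as was the correction by length class. Leaving out 1 array at a time gave 30 to 85 genes, the highest without ara6-1 replicate 1, and 113 without that array and WT replicate 3; fewer arrays make separation easier to meet. Counts over 1.5 times the 26 came without WT replicate 1 (40, 19 of them members), WT replicate 2 (54), WT replicate 3 (70) and ara6-1 replicate 1 (85). Without ara6-1 replicate 3, 16 of the 30 genes were members, the fewest for any single omission. Without ara6-1 replicate 2, 21 of 33 were members. The members' median difference stayed between 0.63 and 0.79 without single arrays. All 26 differences kept their direction in every scaling and array omission, which the choice of members fixes. Over all probe sets limma made 3 calls as reported, 16 when the prior variance followed intensity, 0 with no moderation (2556 at an unadjusted p under 0.05) and 1 without both arrays that stood apart, and 2 to 4 without single arrays; the cause was not tested. Deviations of same-numbered arrays correlated at -0.196, 0.174 and -0.15 for replicates 1 to 3, so only replicate 2 was above 0.1 and the numbers were not taken to pair the samples. WT replicate 3 and ara6-1 replicate 1 correlated at 0.289. With the replicate block 2 probe sets passed, and the members' median difference was 0.67 by construction, with a median SE of 0.13 against 0.16 without the block. Tests of the 6 listed genes and the 111 neighbours kept their counts of 0 and 1 in all alternatives run. The comparison with the closest relatives by protein identity was not run, since no protein sequences were used here. Array number and the low signal of 11 members with an ara6-1 mean under 4 limit what these values can show.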

Other observations

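The order of length classes also showed in how often single genes separated the genotypes. The classes again held only named genes with a mean log2 intensity of at least 4 over all arrays. Under 500 bp, the groups did not overlap with ara6-1 lower in 17.1% of these genes and with ara6-1 higher in 1.83%. At 4000 bp or more these shares were 2.26% and 15.5%. Relative to each gene's mean over the 6 arrays, the median of the longest class was 0.09 and 0.07 in ara6-1 replicates 2 and 3, but -0.03 in ara6-1 replicate 1, which lay with the WT arrays (-0.06 to -0.03). In the shortest class all 3 mutant arrays were below the WT arrays, at -0.07 to -0.02 against 0.02 to 0.08. The cause of this order was not tested.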
